A study of Bos taurus with 8 samples.

Results

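TGF-beta and activin signaling was described through 9 bovine genes: the ligand genes TGFB1, TGFB2, TGFB3 and INHBA, the receptor genes TGFBR1 and TGFBR2, the receptor-regulated SMADs SMAD2 and SMAD3, and the inhibitory SMAD gene SMAD7. A probe belonged to a gene when its RefSeq accession, without the version, stood for that gene in the RefSeq table of the cattle genome. The 9 genes had 16 probes, of 43653 probes and 12603 named genes on the array, and all 9 passed the filter for testing along with 10957 genes in total.

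RNA was measured on 8 one-colour (Cy3) oligo microarrays of HanWoo cattle cells, with 2 arrays per condition. Embryo-derived stem-like cells (eSLCs) are cells grown as colonies from blastocysts whose zona pellucida had been removed, on an inactivated murine STO feeder layer, in a serum-free medium with N2, B27 and inhibitors of MEK (PD184352), FGFR (SU5402) and GSK3 (CHIR99021). IVP-eSLCs came from in vitro produced embryos (line I2, passage 35, and line I9, passage 30), NT-eSLCs from nuclear transfer embryos (N2, passage 36, and N7, passage 30) and PA-eSLCs from parthenogenetic embryos (P1, passage 31, and P4, passage 36). Somatic cells (SCs) grew in DMEM with fetal bovine serum and were measured at passages 5 and 10 (SC P5 and SC P10). The labels name no tissue for the SCs, and whether the passages are independent cultures is not given, so p-values measure the spread between these samples, which may be technical. Cell type, medium, serum, inhibitors, feeder layer and passage all differed between eSLCs and SCs and cannot be told apart, and neither can fewer cells that express a gene and less RNA per cell.

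TGF-beta ligands are secreted in a latent complex and, once released, bind the type II receptor TGFBR2, which recruits and activates the type I receptor TGFBR1. Activin A, a dimer of the INHBA product, uses other type I and type II receptors of the same family. Both routes phosphorylate SMAD2 and SMAD3, which enter the nucleus with SMAD4 and regulate target genes, and SMAD7 acts as a feedback inhibitor at the receptors. In fibroblasts this pathway is known for driving matrix genes, and in early embryos and pluripotent stem cells activin and nodal signals are known for their role in lineage decisions.

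Signals are given as normalized signals, the background-subtracted signal of a gene's brightest probe after the 75th percentile of each array was set to 1000. The probe used need not be the brightest in each condition, and for BGN and DCN other probes were far brighter in SCs. Values below a floor of 13.3 were raised to it before log2 values were taken for differences and tests. Spots well above background made up 71.2% to 76.7% of an array. The number of arrays, 2 per condition, limits the precision. Slide 1 held the IVP lines, N7 and SC P5, and slide 2 held the PA lines, N2 and SC P10. Among the eSLC arrays N7 stood farthest from the others, with a mean Pearson's r of 0.955 across genes against 0.967 to 0.976 for the rest, and I9 and N2 were the closest pair (r = 0.994). Genes are not independent replicates.

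The labels were set beside marker genes. The marker lists were chosen with earlier results of these data known, so this is a description and no independent check. The summed signal of 12 fibroblast markers was 5683 to 10962 in eSLCs and 661154 to 815488 in SCs, and 11 of the 12 were called lower in eSLCs (15.7% of all genes). The exception, DCN, rested on the choice of its probe, as given among the secreted antagonists. The summed signal of 9 trophectoderm markers was 383056 to 973708 in eSLCs and 13132 to 13530 in SCs, with 7 of the 9 called higher in eSLCs (19.7% of all genes). CDX2, a trophectoderm transcription factor, was 5183 to 14887 in eSLCs and not well above background on either SC array. Set against the floor of 13.3, as for all such bounds here, it was at least 675-fold higher in eSLCs. POU5F1, a pluripotency factor, was 30.7 to 898 in eSLCs and 16.3 to 26.0 in SCs (adjusted p = 0.164, limma), and SOX2 was 46.8 to 99.4 in eSLCs and 459 to 551 in SCs. LIN28A, an RNA-binding protein of stem cells, was at least 19.4-fold higher in eSLCs. CDX2 and LIN28A passed the filter for testing only through eSLC arrays, so their calls could hardly go the other way. Of 5 pluripotency markers tested 1 was called higher (19.7% of all genes) and 1 lower (15.7% of all genes). Of 4 hypoblast, 4 keratinocyte and 4 endothelial markers tested, 1 hypoblast marker was called lower (15.7% of all genes) and 1 endothelial marker higher (19.7% of all genes). How far the share of each cell type moved the signaling genes was not tested.

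The first question was how the pathway's genes in eSLCs stood against SCs. A gene was called when its difference was at least 2-fold with an adjusted p under 0.05 (Benjamini-Hochberg over all genes tested, limma). For the 6 eSLC arrays against the 2 SC arrays, 6 of the 9 genes were called lower, where 15.7% of all genes tested were called lower, and 0 of the 9 were called higher, where 19.7% of all genes were. The 6 genes were INHBA, TGFB1, TGFB2, TGFB3, TGFBR2 and SMAD3. The median log2 difference was -2.43 over the 9 genes and 0.23 over all genes tested. Every eSLC array lay below both SC arrays for 7 of the 9 genes, the called genes and SMAD2, where this held for 23.6% of all genes.

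**Figure D1:**
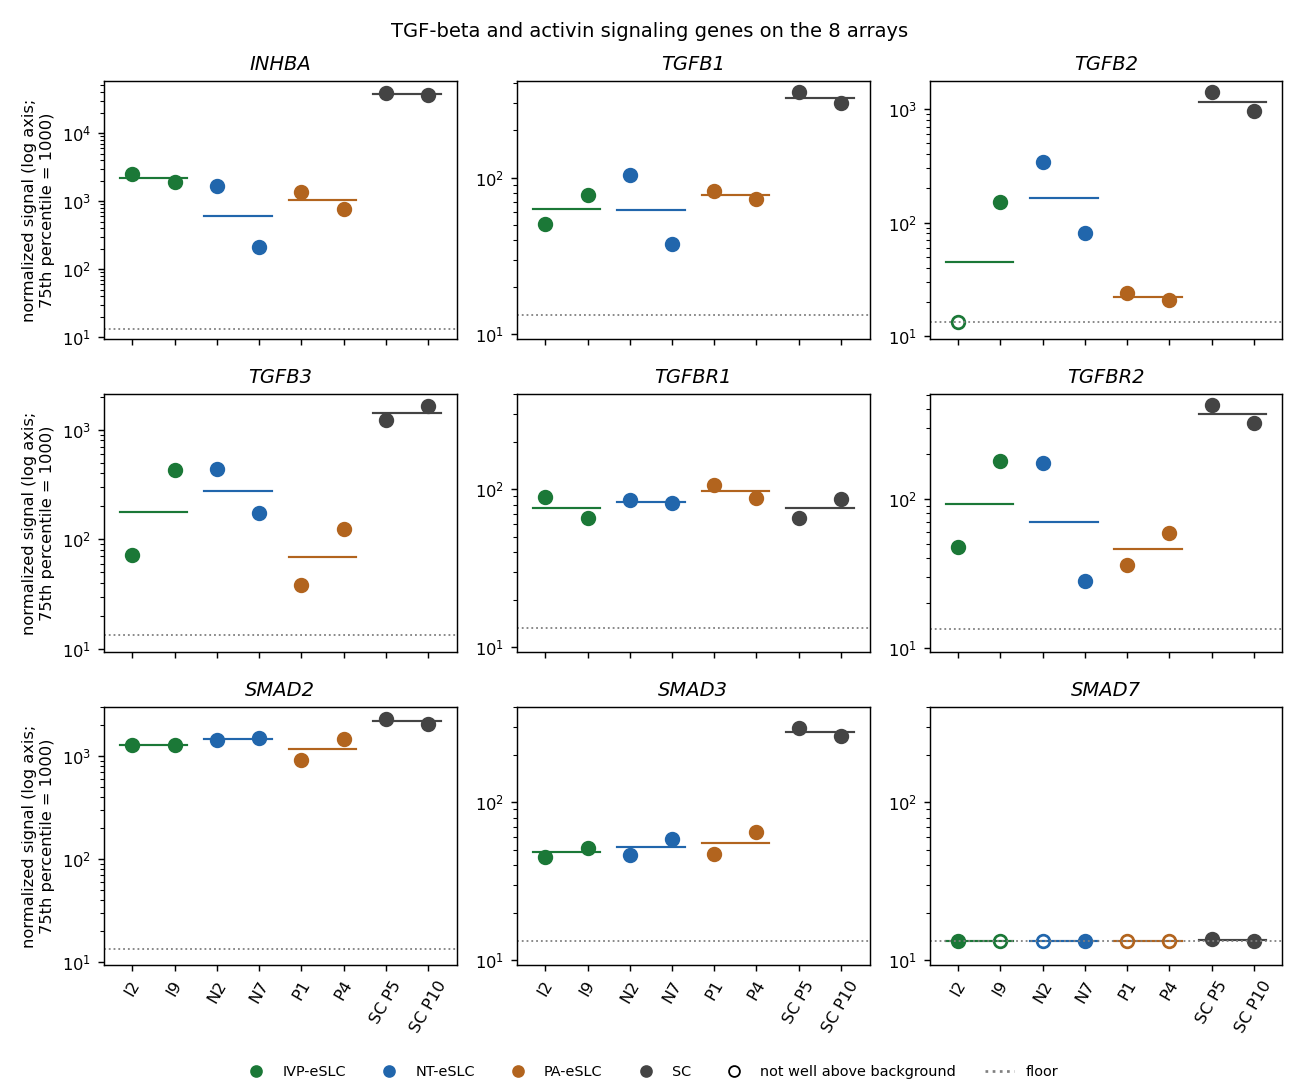
Normalized signal (log axis, 75th percentile of each array = 1000) of the brightest probe of each of the 9 genes on the 8 arrays, with colours for the conditions, open circles for spots not well above background, short lines for condition means on the log2 scale and a dotted line at the floor of 13.3. The SC arrays lie above all 6 eSLC arrays for 7 genes, overlap with them for TGFBR1, and sit at or near the floor with them for SMAD7.

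INHBA encodes the beta A subunit shared by activin A and inhibin A. Its signal (probe A_73_108840) was 2523 in I2, 1890 in I9, 1656 in N2, 214 in N7, 1362 in P1 and 774 in P4, and 38953 in SC P5 and 35772 in SC P10. No eSLC array came near the SC arrays, and even the highest, I2, was 14.2-fold below the lower SC array. INHBA was 33.9-fold lower in eSLCs (log2 difference -5.08, standard error 0.743, adjusted p = 0.00279, limma), with a 95% interval from 9.60-fold to 120-fold. The size depended on the signal used, with log2 differences of -3.95 for the mean of both probes and -3.17 with the series matrix values. The spread lay among the eSLCs, where the highest line was 11.8-fold above the lowest, while the SC arrays differed 1.09-fold. Within slide 1 INHBA was 38.7-fold lower and within slide 2 it was 29.7-fold lower. A second INHBA probe gave 212 to 701 in eSLCs and 3259 and 3276 in SCs, a log2 difference of -2.81 (adjusted p = 0.00281, limma over all named probes). Both probes had N7 as the lowest line.

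TGFB1, the most broadly expressed TGF-beta ligand, was 50.6 in I2, 77.5 in I9, 103 in N2, 37.8 in N7, 82.3 in P1 and 72.7 in P4, with 350 and 299 in SC P5 and SC P10 (probe A_73_111797). All eSLC arrays were below both SC arrays, and again N7 was the lowest. TGFB1 was 4.82-fold lower in eSLCs (log2 difference -2.27, standard error 0.401, adjusted p = 0.0057, limma). It was 6.62-fold lower within slide 1 and 3.51-fold lower within slide 2.

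TGFB2 showed the widest spread among the eSLC lines. Its signal (probe A_73_P038731) was not well above background in I2 (10.2), 152 in I9, 343 in N2, 80.5 in N7, 23.8 in P1 and 20.5 in P4, and 1406 in SC P5 and 958 in SC P10. N2 was 25.8-fold above I2 set to the floor, yet still 2.79-fold below the lower SC array. With I2 at the floor, the difference between eSLCs and SCs was at least 21.2-fold (log2 difference -4.40, standard error 0.986, adjusted p = 0.0137, limma), with a 95% interval from 3.97-fold to 113-fold. TGFB2 was at least 25.8-fold lower within slide 1, which holds I2, and 17.4-fold lower within slide 2. The log2 difference was -3.55 with normexp background correction, -3.82 without I2 and -4.99 without I9.

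TGFB3, the third isoform, was 71.3 in I2, 431 in I9, 434 in N2, 174 in N7, 38.5 in P1 and 125 in P4, with 1222 and 1657 in SC P5 and SC P10 (probe A_73_120809). I9 and N2 were high among the eSLCs and P1 was low, and the highest eSLC array was 2.82-fold below the lower SC array. TGFB3 was 9.52-fold lower in eSLCs (log2 difference -3.25, standard error 0.815, adjusted p = 0.0205, limma), 6.99-fold within slide 1 and 13.0-fold within slide 2. For the mean of its probes the log2 difference was -1.85. A second TGFB3 probe gave 12.8 to 55.2 in eSLCs and 143 and 148 in SCs (log2 difference -2.41, adjusted p = 0.0227, limma over all named probes). The third probe was well above background on 2 of the 8 arrays and was not tested.

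Of the receptors, the type II receptor gene TGFBR2 was 47.6 in I2, 178 in I9, 173 in N2, 28.2 in N7, 36.0 in P1 and 58.6 in P4, with 425 and 322 in SC P5 and SC P10 (probe A_73_P117061). I9 and N2 were high among the eSLCs, and the higher of them, I9, was 1.80-fold below the lower SC array. TGFBR2 was 5.55-fold lower in eSLCs (log2 difference -2.47, standard error 0.801), and its adjusted p of 0.0468 (limma) was the closest to the threshold among the called genes. The second TGFBR2 probe, well above background on 6 of the 8 arrays, gave 6.27 to 31.9 in eSLCs and 33.3 and 52.1 in SCs, and did not pass the test (log2 difference -1.10, adjusted p = 0.0889, limma over all named probes). In that same fit over probes the brightest TGFBR2 probe had an adjusted p of 0.0511 (limma). The call was lost in 12 of 21 alternative settings, including the mean of both probes (log2 difference -1.79, adjusted p = 0.0533, limma), the slide as a block (adjusted p = 0.0547, limma) and the fits without I2, P1, P4, SC P5 or SC P10 (adjusted p = 0.0767, 0.103, 0.0827, 0.256 and 0.191, limma).

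The type I receptor gene TGFBR1 overlapped between eSLCs and SCs. It was 89.3 in I2, 65.4 in I9, 84.9 in N2, 81.9 in N7, 106 in P1 and 88.1 in P4, with 65.8 and 86.7 in SC P5 and SC P10 (probe A_73_P047601). The log2 difference was 0.17 (standard error 0.204, adjusted p = 0.514, limma), with a 95% interval from -0.33 to 0.67, so that a change of 2-fold in either direction lay outside the interval. Its second probe gave almost the same value (0.18, standard error 0.184). The receptor pair thus had unlike values in the same samples, TGFBR2 below the SC arrays on every eSLC array and TGFBR1 among them.

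SMAD3 showed the narrowest standard error of the called genes. Its signal (probe A_73_120129) was 45.3 in I2, 51.4 in I9, 46.3 in N2, 58.3 in N7, 47.3 in P1 and 65.2 in P4, and 296 in SC P5 and 262 in SC P10. The eSLC lines lay within 1.44-fold of each other and at least 4.02-fold below the SC arrays. SMAD3 was 5.37-fold lower in eSLCs (log2 difference -2.43, standard error 0.198, adjusted p = 0.000289, limma), with a 95% interval from 3.84-fold to 7.52-fold. It was 5.76-fold lower within slide 1 and 5.01-fold within slide 2. The second SMAD3 probe, dim in eSLCs at 7.20 to 14.4, gave 37.8 and 48.7 in SCs and was lower by the test too (log2 difference -1.66, adjusted p = 0.000573, limma over all named probes).

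SMAD2, the other SMAD that TGF-beta and activin receptors phosphorylate, was 1282 in I2, 1300 in I9, 1448 in N2, 1516 in N7, 923 in P1 and 1490 in P4, with 2334 and 2081 in SC P5 and SC P10 (probe A_73_P051227). All eSLC arrays were below the SC arrays, by a smaller factor than for SMAD3. The 1.68-fold difference (-0.75 on the log2 scale, adjusted p = 0.0313, limma, standard error 0.214) was below the 2-fold needed for a call. On the log2 scale it was -0.78 within slide 1 and -0.73 within slide 2. A second SMAD2 probe gave 81.4 to 121 in eSLCs and 187 and 235 in SCs, a log2 difference of -0.93 (adjusted p = 0.00763, limma over all named probes).

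SMAD7, the inhibitory SMAD, was at the limit of the measurement. Its only probe (A_73_P224307) was well above background on 4 of the 8 arrays, with signals of 12.3 in I2, 10.3 in N7, 13.7 in SC P5 and 9.73 in SC P10. The other eSLC arrays, at 2.04 to 6.92, were not well above background, and 7 of the 8 arrays were at or below the floor. It was well above background on neither PA array, and no fold is given. The fitted difference of -0.02 (adjusted p = 0.902, limma) therefore compares values at the floor.

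**Figure D2:**
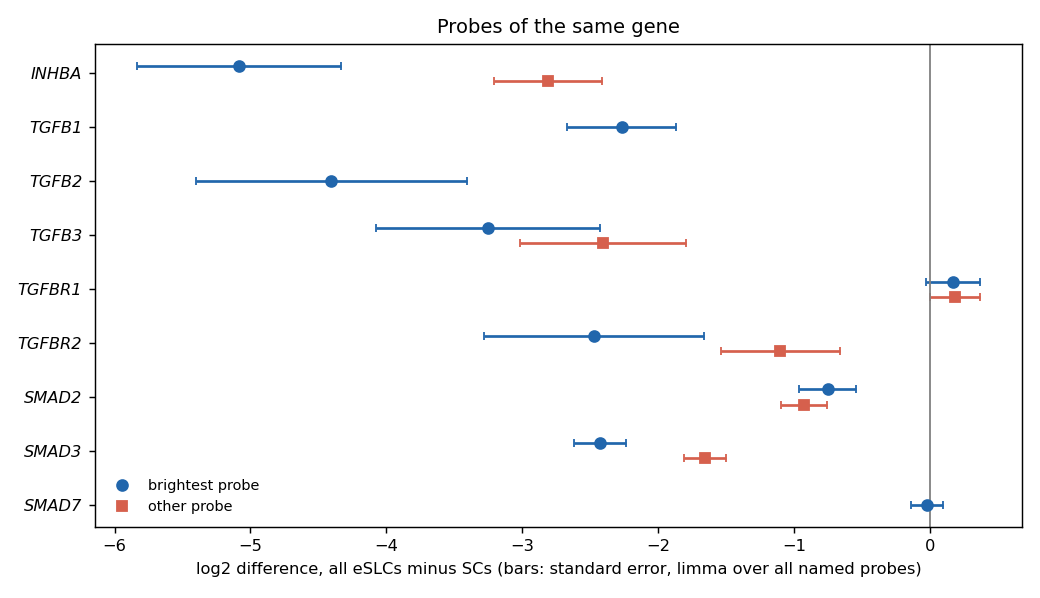
Log2 difference between all eSLCs and SCs for each tested probe of the 9 genes, with circles for the brightest probe, squares for the other probe and bars for the standard error of the limma fit over all named probes. Probes of the same gene lie on the same side of 0, and the second probes of SMAD3, TGFBR2 and TGFB3 have 3, 2 and 1 arrays at the floor, so their differences are limits.

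The second question was whether the origins of the eSLCs stood alike against SCs. The 3 comparisons share the SC arrays. INHBA, TGFB1 and SMAD3 were called lower in each of the 3 origins, where 11.6% of all genes tested were. Not all of these calls held in other settings. In NT-eSLCs TGFB1 was not called, and TGFB3 was, in the fit of only the conditions compared, and the methods' t-test called SMAD3 alone before adjustment and none of the 9 after it. In PA-eSLCs INHBA and TGFB1 were not called with the series matrix values, nor SMAD3 in the adjusted t-test, and in IVP-eSLCs TGFB1 was not called in the adjusted t-test. Against SCs, 4 of the 9 genes were called lower in IVP-eSLCs (14.6% of all genes), 3 of 9 in NT-eSLCs (13.9% of all genes) and 5 of 9 in PA-eSLCs (14.9% of all genes). In each origin 0 of the 9 were called higher, where 17.7%, 15.8% and 20.3% of all genes were. TGFB2 was the added gene in IVP-eSLCs, and TGFB2 and TGFB3 were added in PA-eSLCs. TGFB2 was not called in IVP-eSLCs with the slide as a block, in the fit of only the conditions compared, with no filter or in the t-test. INHBA was 17.1-fold lower in IVP-, 62.6-fold lower in NT- and 36.4-fold lower in PA-eSLCs (adjusted p = 0.0167, 0.00478 and 0.00676, limma). The NT value rested on unlike lines, with a log2 difference of -4.49 without N7 and -7.44 without N2, so the order of NT- and PA-eSLCs turned without N7. The INHBA log2 differences were -4.10, -5.97 and -5.18 in IVP-, NT- and PA-eSLCs. Over the alternative settings, the processed signal aside, the smallest were -3.24, -3.71 and -2.57. With the series matrix values the order of PA- and IVP-eSLCs turned too (0.67 for PA against IVP). SMAD3 was 5.77-, 5.37- and 5.01-fold lower in the same order (adjusted p = 0.000761, 0.00097 and 0.00105, limma), a range far narrower than that of INHBA.

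TGFB1 was 5.17-fold lower in IVP-, 5.18-fold lower in NT- and 4.18-fold lower in PA-eSLCs (adjusted p = 0.0131, 0.0143 and 0.0194, limma), and its NT log2 difference was -1.65 without N7 and -3.10 without N2. TGFB2 had log2 differences from SCs of -4.69 in IVP-, -2.80 in NT- and -5.71 in PA-eSLCs (adjusted p = 0.0273, 0.124 and 0.0131, limma). The IVP value has I2, which was not well above background, set to the floor and is therefore a limit. Without I2 it was -2.94, and without I9 it was -6.45, again with I2 at the floor. The NT value of TGFB2 was -1.76 without N7 and -3.85 without N2. TGFB3 had log2 differences of -3.02, -2.37 and -4.36 (adjusted p = 0.0585, 0.118 and 0.0172, limma), and the PA value was -3.51 without P1 and -5.21 without P4. The IVP value was -1.72 without I2 and -4.32 without I9, and the NT value -1.71 without N7 and -3.03 without N2. TGFB3 was called in IVP-eSLCs with normexp, with the series matrix values and over probes well above background on all 8 arrays. In PA-eSLCs the TGFB3 call was lost in the adjusted t-test. Its smallest PA log2 difference over the alternative settings, the processed signal aside, was -2.23. TGFBR2, called over all eSLCs, passed in no origin alone, at 4.01-, 5.30- and 8.05-fold lower (adjusted p = 0.158, 0.109 and 0.0522, limma). Its log2 difference was -1.05 without I2 and -2.96 without I9 in IVP-eSLCs, and -1.10 without N7 and -3.71 without N2 in NT-eSLCs. In other settings it was called in PA-eSLCs with a floor of 1 scanner unit, in the fit of only the conditions compared, in the unadjusted t-test, with the series matrix values and over probes well above background on all 8 arrays, and in IVP-eSLCs with the series matrix values. SMAD2 had log2 differences below 2-fold in each origin, at -0.77, -0.57 and -0.91 (adjusted p = 0.0633, 0.143 and 0.0362, limma). It was called in PA-eSLCs for the mean of its probes (-1.04), and with the series matrix values it was -1.48 in IVP- and -1.31 in NT-eSLCs without being called. These calls rested on few arrays, and without SC P5 or without SC P10 only SMAD3 was called in any of the 3 origins. Without I2 only SMAD3 was called in IVP-eSLCs, and without P1 only INHBA and SMAD3 were called in PA-eSLCs. Single calls were also lost without I9 (INHBA in IVP-eSLCs), without P1 or P4 (TGFB2 in IVP-eSLCs), and without P4 (TGFB1 and TGFB2 in PA-eSLCs). Calls were gained without I9 (TGFB3 in IVP-, TGFB2 in NT-eSLCs), without I2 (TGFB2 in NT-eSLCs), without N2 (TGFBR2 in NT- and PA-eSLCs), without N7 (TGFBR2 in PA-eSLCs) and without P4 (SMAD2 in PA-eSLCs).

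**Figure D3:**
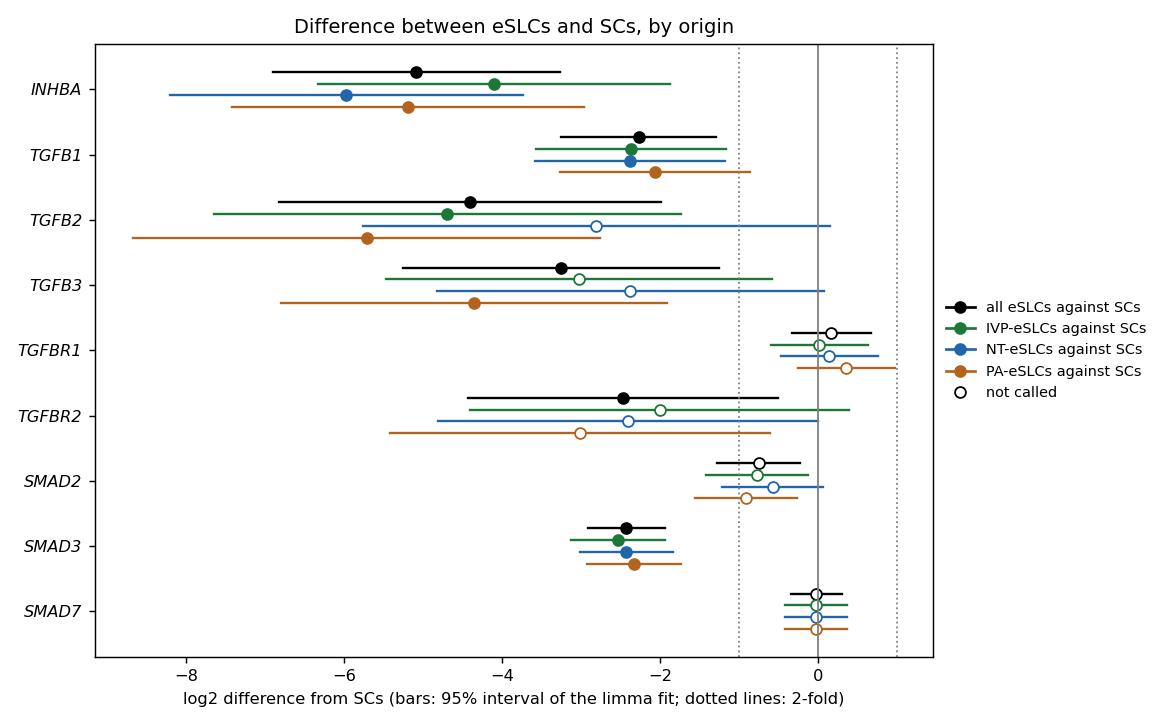
Log2 difference from SCs for the 9 genes, over all eSLCs (black) and by origin (colours), with 95% intervals of the limma fit as bars, filled circles for called genes, open circles for genes not called and dotted lines at 2-fold. INHBA, TGFB1 and SMAD3 are filled in all 3 origins, TGFB2 and TGFB3 have wide intervals, and TGFBR1 and SMAD7 lie around 0.

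Between origins, limma called 0 genes of all 10957 (0%), and 306, 568 and 1091 genes had an unadjusted p under 0.05 for NT- against IVP-, PA- against IVP- and PA- against NT-eSLCs. The lowest unadjusted p among the 9 genes was 0.0853, 0.222 and 0.0528 in these comparisons (limma, 2 arrays per origin). The last belonged to TGFB2, whose log2 difference between PA- and NT-eSLCs was -2.91, with a 95% interval from -5.87 to 0.05 (adjusted p = 0.506, limma). With 1 array left out this difference ranged from -3.96 to -1.86. The first belonged to INHBA, at -1.87 for NT- against IVP-eSLCs, with an interval from -4.10 to 0.36 (adjusted p = 1). TGFB3 differed by -1.98 between PA- and NT-eSLCs, with an interval from -4.43 to 0.46 (adjusted p = 0.537). Intervals of this width include both no difference and differences well above 2-fold. The IVP lines were all on slide 1 and the PA lines all on slide 2. Origin and slide therefore cannot be told apart by the arrays of PA- against IVP-eSLCs. With the slide as a block, 392, 259 and 526 genes had an unadjusted p under 0.05 in the 3 comparisons (limma), and 0 were called.

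The lines of an origin lay close for SMAD3 and apart for some of the other genes. I2 and I9 from IVP embryos differed for TGFB2 (10.2 and 152), TGFB3 (71.3 and 431) and TGFBR2 (47.6 and 178), and N2 and N7 from NT embryos for INHBA (1656 and 214), TGFBR2 (173 and 28.2) and TGFB2 (343 and 80.5). P1 and P4 differed for TGFB3 (38.5 and 125). Among orders seen in the data, I9 and N2 were the highest pair of eSLC arrays for TGFB2, TGFB3 and TGFBR2, 3 of the 9 genes, where 13.8% of all genes showed this order. N7 was the lowest eSLC array for INHBA, TGFB1 and TGFBR2, 3 of 9, where 26.6% of all genes did. The summed signal of the fibroblast markers was also highest in I9 (10962) and N2 (10755) among the eSLCs and lowest in N7 (5683), with P4 at 9131, I2 at 6393 and P1 at 5724. Other marker sums set these lines apart too. The endothelial sum was highest in I9 (325) and N2 (305), and the keratinocyte sum was highest in I9 (3513) and lowest in N7 (1447). The trophectoderm sum was lowest in N7 (383056) and highest in N2 (973708). N7 had the highest hypoblast (7020) and pluripotency (1341) sums. The part of any of these in the order of the lines was not tested.

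The other genes of the pathway were taken by role from 6 lists of 78 genes, of which 64 had a named probe and 58 were tested. For all eSLCs against SCs, 28 of the 58 were called lower and 4 higher, where 15.7% of all genes tested were called lower and 19.7% higher. Their median log2 difference was -1.02, and that of all genes tested was 0.23. The same shares of all genes stand beside each role below, and differences between the roles were not tested.

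Among the other ligands, 1 of 5 genes tested was called lower (15.7% of all genes), INHA, which encodes the inhibin alpha subunit. INHA was 30.9 to 68.3 in eSLCs and 192 and 215 in SCs, 3.83-fold lower (adjusted p = 0.0011, limma). A second INHA probe did not show this, with 25.0 and 25.2 in SCs and eSLC arrays from 20.7 upwards on both sides of them. NODAL, the ligand of nodal signals and named here after its values were seen, was well above background in 1 of the 6 eSLC arrays and on neither SC array, and was not tested. Of the other receptors and co-receptors, 2 of 7 were called higher (19.7% of all genes) and 2 lower (15.7% of all genes), with a median of -0.16. BAMBI, a pseudoreceptor that dampens TGF-beta family signals, was 1282 to 2733 in eSLCs and 131 and 193 in SCs, 10.9-fold higher (adjusted p = 0.000444, limma). ACVR2B, a type II receptor for activin, was 254 to 316 in eSLCs and 46.9 and 54.6 in SCs, 5.65-fold higher (adjusted p = 0.000148, limma). ENG, a TGF-beta co-receptor known from endothelial and mesenchymal cells, was 47.1 to 93.7 in eSLCs and 12448 and 14351 in SCs, 203-fold lower (adjusted p = 7.12e-06, limma). ACVR1, a type I receptor mainly for BMPs, was 2.94-fold lower (adjusted p = 0.00545, limma).

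In the group of latency and activation, 8 of 11 genes were called lower (15.7% of all genes) and 1 higher (19.7% of all genes), with a median log2 difference of -1.56. LTBP2, a matrix protein of the latent TGF-beta binding family, was 15.0 to 49.9 in eSLCs and 19329 and 31224 in SCs (adjusted p = 4.25e-05, limma). THBS1, an activator of latent TGF-beta, was 130826 in SC P5 and 186977 in SC P10, and among the eSLCs it was highest in N2 (2036) and I9 (1184) and lowest in I2 (45.2). THBS1 was 589-fold lower in eSLCs (adjusted p = 0.00296, limma). The size depended on the probe. All THBS1 probes were below both SC arrays on every eSLC array, but another one gave 160 to 250 in eSLCs and 1685 and 2680 in SCs. FBN1, the fibrillin that anchors latent complexes, was well above background on no eSLC array and at least 42.7-fold lower there. FBN1 and ITGB8, both among the 8, passed the filter only through the SC arrays, so their calls could hardly go the other way. FURIN, a protease that cleaves TGF-beta precursors, was 82.1 to 194 in eSLCs and 12.5 and 18.3 in SCs. With SC P5 raised to the floor it was at least 8.35-fold higher in eSLCs (adjusted p = 0.00208, limma).

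Of 5 secreted antagonists, 1 was called lower (15.7% of all genes), FSTL1, at 1526 to 4238 in eSLCs and 41804 and 47926 in SCs (16.5-fold, adjusted p = 0.000123, limma). This count depended on the probe chosen for DCN and BGN, proteoglycans that bind TGF-beta, both named here after their values were seen. BGN was 444 to 705 in eSLCs and 587 and 664 in SCs on its chosen probe, and 20.5 to 194 against 75768 and 96384 on another. DCN was 839 to 1250 against 1433 and 2052 on its chosen probe, and 14.4 to 44.8 against 60936 and 74901 on another. FST, which encodes the activin-binding protein follistatin and was chosen here after its values were seen, was 181 in I2, 208 in I9, 362 in N2, 7274 in N7, 83.2 in P1 and 220 in P4, with 2125 and 2684 in SC P5 and SC P10. N7 alone lay above both SC arrays and the other eSLC arrays lay below them, and the test was not passed (adjusted p = 0.0819, limma). N7, the line with the highest FST signal, was also the line with the lowest INHBA signal. N7 was the lowest eSLC array for 26.6% of all genes, and a link between FST and INHBA was not tested.

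Of 12 other SMADs and regulators, 2 were called lower and 1 higher, close to or below the 15.7% and 19.7% of all genes tested. SMAD4, the common partner of SMAD2 and SMAD3, was 601 to 877 in eSLCs and 1238 and 1791 in SCs, 2.05-fold lower (adjusted p = 0.00632, limma). A second SMAD4 probe was also below both SC arrays on every eSLC array, and the third overlapped, at 225 to 456 in eSLCs and 423 and 434 in SCs. SMAD6, an inhibitory SMAD best known in BMP signaling, was well above background on 2 of the 6 eSLC arrays, none of them over 14.2, and 83.0 and 93.4 in SCs. SMAD6 passed the filter only through the SC arrays, so its call could hardly go the other way. TRIM33, a chromatin-associated ubiquitin ligase that binds SMADs, was 300 to 616 in eSLCs and 103 and 120 in SCs, 3.55-fold higher (adjusted p = 0.00704, limma).

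Of 18 genes known to respond to TGF-beta, 14 were called lower and 0 higher, with a median log2 difference of -5.19, where 15.7% of all genes were called lower and 19.7% higher. Both type I collagen genes in this list are also in the fibroblast list, and without them 12 of 16 were called lower, with a median of -3.74. TGFBI, a secreted matrix protein, was well above background on 1 of the 6 eSLC arrays (N7, 67.9) and 12592 and 14634 in SCs. POSTN, another matrix protein, was well above background on 1 of the 6 eSLC arrays (N2, 29.1) and 7655 and 8647 in SCs. TGFBI and POSTN, both among the 14, passed the filter only through the SC arrays, so their calls could hardly go the other way. LOX, which crosslinks collagen, was 33.3 to 242 in eSLCs and 35699 and 36263 in SCs, 438-fold lower (adjusted p = 0.000217, limma). CCN2, a matricellular protein named here after its values were seen, was 2143 to 5054 in eSLCs and 100062 and 120238 in SCs, 30.8-fold lower (adjusted p = 0.000352, limma). Fibroblasts express most of these genes, and the 12 fibroblast markers had a median log2 difference of -5.85. The part of cell type in these values was not tested.

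**Figure D4:**
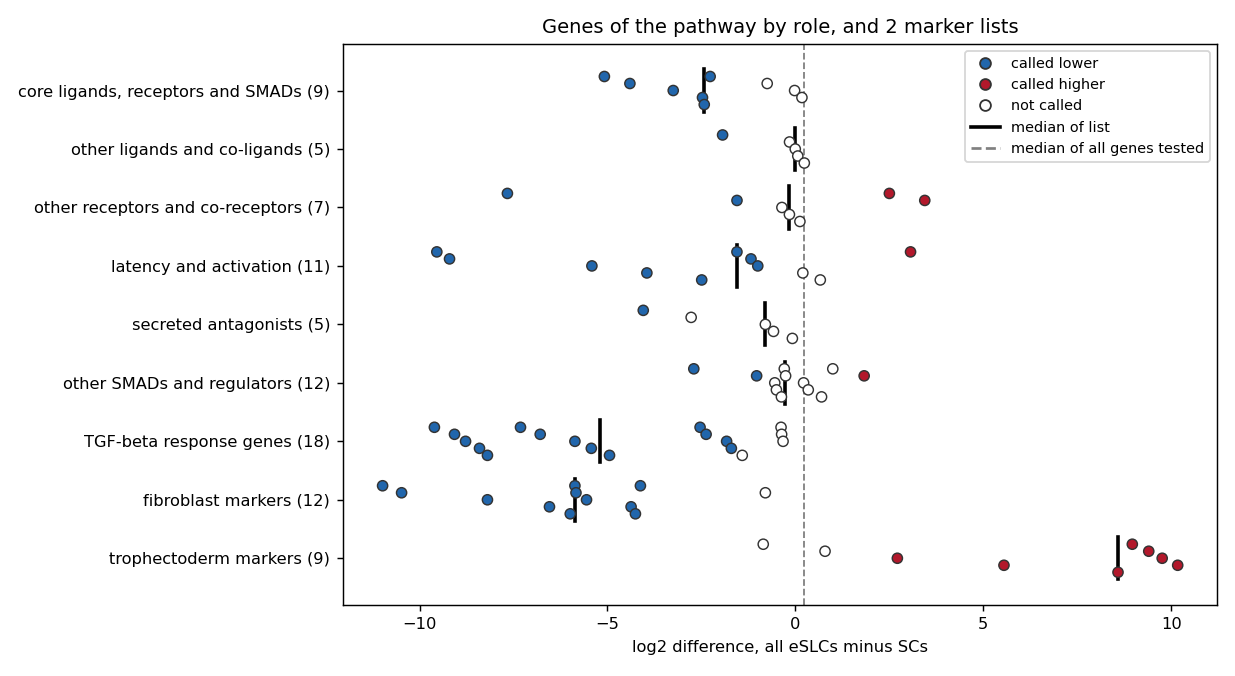
Log2 difference between all eSLCs and SCs for each gene tested of the 9 core genes, the 6 pathway lists and the fibroblast and trophectoderm markers, with the number tested in parentheses, filled circles for called genes and black bars for medians. The response genes and the fibroblast markers lie mostly below -1, the ligand, receptor and regulator lists spread around the median of all genes (dashed line, 0.23), and 7 of 9 trophectoderm markers are called higher.

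The genes whose pattern over the 8 arrays was most like that of the 3 members with the widest range were found by the root mean square difference of log2 signals after each gene was centred on its mean. For INHBA, with a range of 7.50 on the log2 scale, they were ME3 (0.47), THY1 (0.52) and ROR2 (0.64). For TGFB2, with a range of 6.73, they were DTX3 (0.64), CFB (0.74) and LOC512672 (0.76). For TGFB3, with a range of 5.43, they were MID1 (0.32), ABHD3 (0.44) and SLC1A5 (0.46). Only 8 arrays underlie these values, and the step between eSLCs and SCs is part of each of them.

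The calls over all eSLCs were not equally firm. INHBA and SMAD3 were called in 20 of 21 alternative settings, TGFB1 in 17 of 21, TGFB2 in 16 of 20, TGFB3 in 16 of 21 and TGFBR2 in 9 of 21. With SC P5 or SC P10 left out, or with the SC arrays counted as 1 sample, only INHBA and SMAD3 were called. With each eSLC array left out in turn, 5 or 6 of the genes were called, and TGFBR2 was the gene that was lost.

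**Figure D5:**
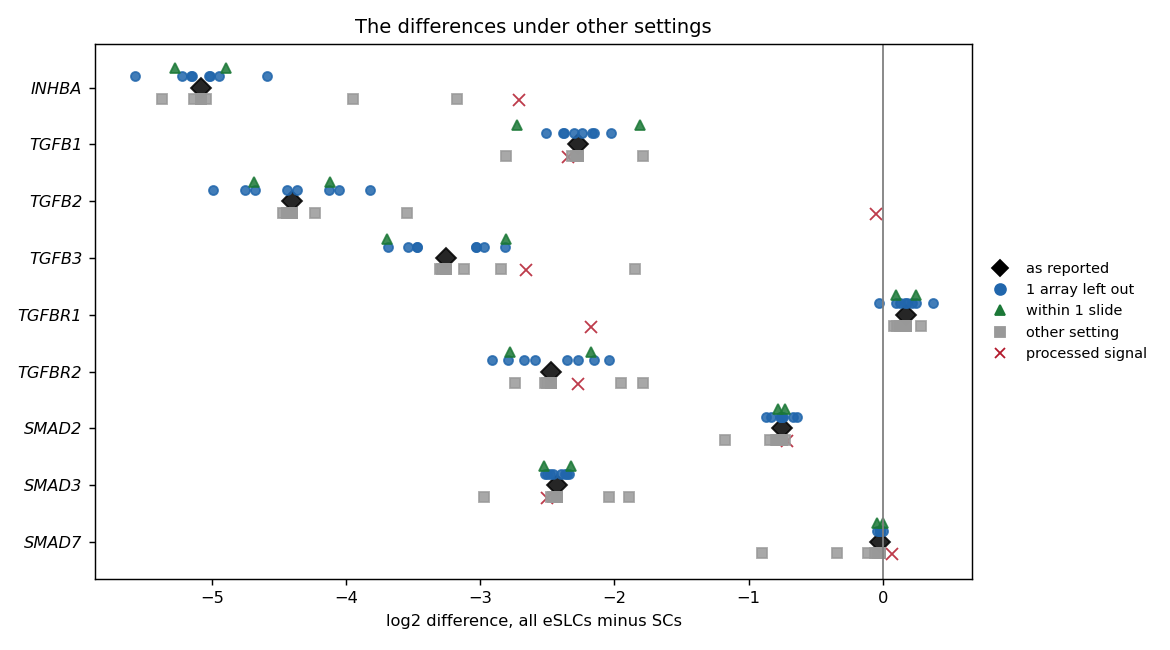
Log2 difference between all eSLCs and SCs for the 9 genes as reported (diamonds), with 1 array left out (circles), within 1 slide (triangles), under other settings (squares) and with the scanner software's processed signal (crosses). The 6 called genes and SMAD2 stay below 0 in each setting, with TGFB2 near 0 for the processed signal alone.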

How the data were processed

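The authors scanned the arrays, quantified them with Feature Extraction (version 11.5.1.1 per the file headers) and deposited linear signal intensities per spot, not normalized between arrays, and a series matrix of values normalized by them. Their methods name GeneSpring and ratios of averaged normalized intensities, and give no scale or centring for the matrix. The scanner software's processed signal was out of step with the background-subtracted signal in 6 of the 8 files (Spearman's rho 0.161 to 0.216, against 0.971 and 0.973 in N2 and I2), so the background-subtracted signal was used.

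Control spots and outlier spots (1 to 11 per array) were left out, spots of a probe averaged, arrays scaled to their 75th percentile (1192 to 4092 scanner units, which is 75.3 to 136 times each array's lowest reliable signal) and floored. Probes were named through RefSeq accessions (26743 of 43653), and 8164 of 12603 genes had more than 1 probe; the brightest was used. The array design names build UMD_3.1 and the RefSeq table ARS-UCD2.0, so no coordinates are given. A gene entered the test if both arrays of any condition had it well above background. One that entered only through the SC arrays could hardly be called higher in eSLCs. One that entered only through eSLC arrays could hardly be called lower. This holds in the lists and in the shares of all genes alike. All 8 arrays were fitted together in R (version 4.3.3) with limma (version 3.58.1), with p-values adjusted over all genes. The contrast of all eSLCs gave each origin the same weight. On simulated data with 200 of 10949 genes changed 4-fold, 61.5% were recovered for all eSLCs against SCs, 54.5%, 55.5% and 54.5% for IVP-, NT- and PA-eSLCs against SCs, and 44.5%, 49% and 55.5% for NT against IVP, PA against IVP and PA against NT. In the data far more genes were called for all eSLCs against SCs, 2155 higher and 1719 lower. The adjusted cut-off depends on that share, so the rates against SCs do not carry over to the tests reported.

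The 9 genes and all lists were chosen with earlier results of these data known. Of each pathway list, up to 3 genes called in each direction, with arrays that do not overlap and the largest difference, are named, and exceptions are marked. A gene of the response list is not reported here and was left out of its counts. Alternatives were other signal columns, scalings, filters, floors, probe rules and tests, the slide as a block, and each array left out; normexp used the median signal, since the files hold no mean signal. Python version 3.11.15 and matplotlib version 3.10.9 were used for tables and figures.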

Additional observations from a re-analysis of the deposited data

Results flagged for a closer look

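Among the 6 eSLC arrays, 3 of 14 probes of the 9 genes had an array set apart, with a gap to its neighbour that was a larger share of the group's range than Dixon's 95% critical value of 0.625. Probes with at least 5 of the 6 arrays at the floor were not checked, since the floor fixes the share there. Chance flags about 1 in 20 groups, and probes of a gene are not independent of each other. The share, taken on log2 signals and not on the signals in parentheses, was 0.646 for N7, the lowest array of the second INHBA probe (212). It was 0.661 and 0.696 for P1, the lowest array of both SMAD2 probes (923 and 81.4). Among 19 genes of the pathway and marker lists, some of them picked after their values were seen, it was 0.671 for N7, the highest array of FST (7274), and 0.648 for N7, the highest array of POU5F1 (898).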

How the results depend on the processing

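Every number above rests on 2 arrays per condition, and the SC arrays weigh most. No paired analysis was possible because the labels give no replicate number that pairs arrays across conditions. With the slide as a block, 3810, 3131, 3093 and 3239 genes and 5, 3, 3 and 5 members were called for all, IVP-, NT- and PA-eSLCs against SCs. With the processed signal, which is out of step in 6 files, 464, 236, 276 and 224 genes were called in the same order, in place of 3874, 3542, 3263 and 3862, and 0 of the 9 members in each. With the SC arrays as 1 sample, 2468, 2020, 1810 and 2304 genes and 2, 1, 1 and 1 members were called. Leaving out 1 array at a time gave 2414 to 4020, 2066 to 3800, 1743 to 3158 and 2248 to 4096 genes, and 2 to 6, 1 to 4, 1 to 4 and 1 to 6 members. With the series matrix values 2205, 2017 and 2090 genes were called for IVP-, NT- and PA-eSLCs. The methods' t-test after Benjamini-Hochberg called 864, 297 and 1659 genes and 2, 0 and 3 members there, and before adjustment 1 member in NT-eSLCs. The fit with only the conditions compared is the same fit for all eSLCs.

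Between origins (NT against IVP, PA against IVP, PA against NT), the series matrix values called 98, 3 and 84 genes, the unadjusted t-test 17, 84 and 184, the adjusted t-test 1 in PA against IVP, and leaving out 1 array 0 to 60, 0 to 2 and 0 to 55. None of these settings called a member.

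Signs of the values below turned in the settings named with them. Some of their main log2 differences were not given above. In PA against IVP they were -1.09 for INHBA, -1.02 for TGFB2 and -1.34 for TGFB3. TGFB3 was 0.65 in NT against IVP, and INHBA was 0.78 in PA against NT. TGFBR1 was 0.017 in IVP- and 0.14 in NT-eSLCs against SCs. TGFBR1 over all eSLCs was -2.18 with the processed signal and -0.027 without SC P5, and SMAD7 was 0.068 with the processed signal. By origin, with single arrays left out, TGFBR1 reached -0.21 in IVP- and -0.056 in NT-eSLCs against SCs. With the processed signal, TGFB2 was 0.37 in NT- and 0.75 in PA-eSLCs against SCs, 2.01 in PA against IVP and 0.38 in PA against NT, and INHBA was 0.33 in PA against IVP. With the series matrix values, INHBA was 0.67 and TGFB3 0.16 in PA against IVP. Without single arrays, TGFB3 in NT against IVP ranged from -0.65 (without I2) to 1.94 and was -0.014 without N2, TGFB2 in PA against IVP ranged from -2.78 to 0.73 (without I9), and INHBA in PA against NT from -0.69 (without N7) to 2.26. The cause was not tested in any of these. The median of all genes was 0.23, and 0.12 after quantile normalization, 0.11 with no filter, 0.06 with the series matrix values and 0.41 with the processed signal.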
